A study of Pseudotsuga menziesii with 26 samples.

Results

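Some needle transcripts were well represented in several Air Control seedlings of Douglas-fir (Pseudotsuga menziesii) and had no count at all in others. They are called on/off transcripts here. They were chosen from the raw counts of the 6 Air Control libraries, after leaving out identifiers up to psme_t000300 and the 23 transcripts that took over 1% of the counts of the remaining identifiers in any library. With 1% of all counts as the limit, an alternative chosen after the data were seen, 21 transcripts would be removed, and 114 would be chosen, all among the 118 below. Levels were then expressed as CPM, counts scaled to a library total of 1000000 over what remained. A transcript was chosen if it had 0 counts in at least 2 Air Control libraries and reached at least 2 CPM in at least 2 others. A level of at least 2 CPM is called on, 0 counts is called at 0, and anything between is called a trace. The rule was met by 118 of the 173882 transcripts in the table, and all 118 were kept, since the limit of 200 was not reached.

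Poly(A) RNA was sequenced from previous-year needles of seedlings that shared 1 parent. Each library is treated as 1 seedling, which the labels do not state. The needles had grown in 2011 and were sampled in 2012, in a season when needle growth was dormant. Seedlings stood for 2 weeks in exposure chambers of 984 L and were exposed 6 h a day on 5 days a week. Light was given for 16 h a day. Air Control (n = 6) had air cleaned by charcoal, Purafil and HEPA filters, DE (n = 7) had diesel exhaust, DECe (n = 7) had exhaust of diesel fuel with engineered CeO2 nanoparticles as a catalyst, and DECe Gas Phase (n = 6) had the DECe exhaust after a HEPA filter. Filtered air ran through all chambers between exposures. Each atmosphere had 1 chamber, so atmosphere and chamber cannot be told apart, and p-values measure only the spread between seedlings of a chamber.

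Douglas-fir is a wind-pollinated, outcrossing conifer. Seedlings from the same seed parent usually differ in their pollen parent and so carry different alleles at many loci. Mature needles are the photosynthetic organs of the shoot, and most of their RNA comes from a small number of very abundant transcripts. In a reference transcriptome each assembled sequence has its own identifier, so that related copies or alleles of a gene can be counted under separate identifiers. The files do not pair identifiers with gene names, so no function is given for any transcript, the tissue could not be checked against marker genes, and no sequences are shown. Transcripts are identified by their identifier and by the length that the deposited RPKM values imply.

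Depth decides what a count of 0 can show. Total counts were 24924192 to 43560508 per library in Air Control, and 9 exposed libraries also had at least 10000000 counts: DE replicate 5, DECe replicates 2, 3, 4 and 13, and DECe Gas Phase replicates 2, 3, 7 and 10. These 15 libraries are called deep. After the removal, 7249548 to 20857347 counts were left in Air Control and 5768522 to 32852277 in the exposed deep libraries. A level of 2 CPM therefore stood for 14.5 to 41.7 counts in Air Control and 11.5 to 65.7 in the exposed deep libraries. A count of 0 allows a level of up to 3 counts, which was 0.144 to 0.414 CPM in Air Control and 0.0913 to 0.520 CPM in the exposed deep libraries. These limits cover counting error only. In the other 11 libraries, called shallow, the limit was 4.19 to 23.2 CPM, so a level of 2 CPM was not detectable there.

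Values in Air Control chose the transcripts, so they are given as a description. Of the 118, 83 were at 0 in 2 Air Control libraries, 28 in 3 and 7 in 4. They were on in 2 libraries in 84 cases, in 3 in 25 cases and in 4 in 9 cases. The highest level in Air Control was between 2.13 and 43.0 CPM, with a median of 4.84 CPM. The on levels of a transcript had a median ratio of highest to lowest of 1.61 and a largest ratio of 16.0. Only levels of at least 2 CPM enter this ratio, so it cannot be large where the highest level is low. Over the exposed deep libraries, which the rule did not use, the median ratio was 2.39 and the largest 24.1. That holds for the 76 transcripts on in at least 2 of them. Near the threshold, psme_t094538 was the transcript just inside, with a second-highest Air Control level of 2.01 CPM, and psme_t033026 lay just outside at 1.98 CPM.

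No Air Control seedling carried all of the absences. Replicate 11 was at 0 for 74 of the 118, replicate 14 for 48, replicate 8 for 44, replicate 15 for 41, replicate 3 for 39 and replicate 5 for 32. The transcripts on were most in replicate 15, with 61, and in replicate 3, with 57, and fewest in replicate 11, with 32. Replicates 11 and 14 were at 0 together for 38 transcripts and on together for 20. They also had the fewest counts left, 11459190 and 7249548, and in replicate 14 only 16.6% of all counts remained after the removal, against 46.0% to 64.8% in the other Air Control libraries. The 118 fell into 79 different combinations of on, trace and 0 over the 6 libraries. The commonest combination held 8 transcripts, on in replicates 3 and 15, a trace in replicates 5 and 8, and at 0 in replicates 11 and 14.

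**Figure D1:**
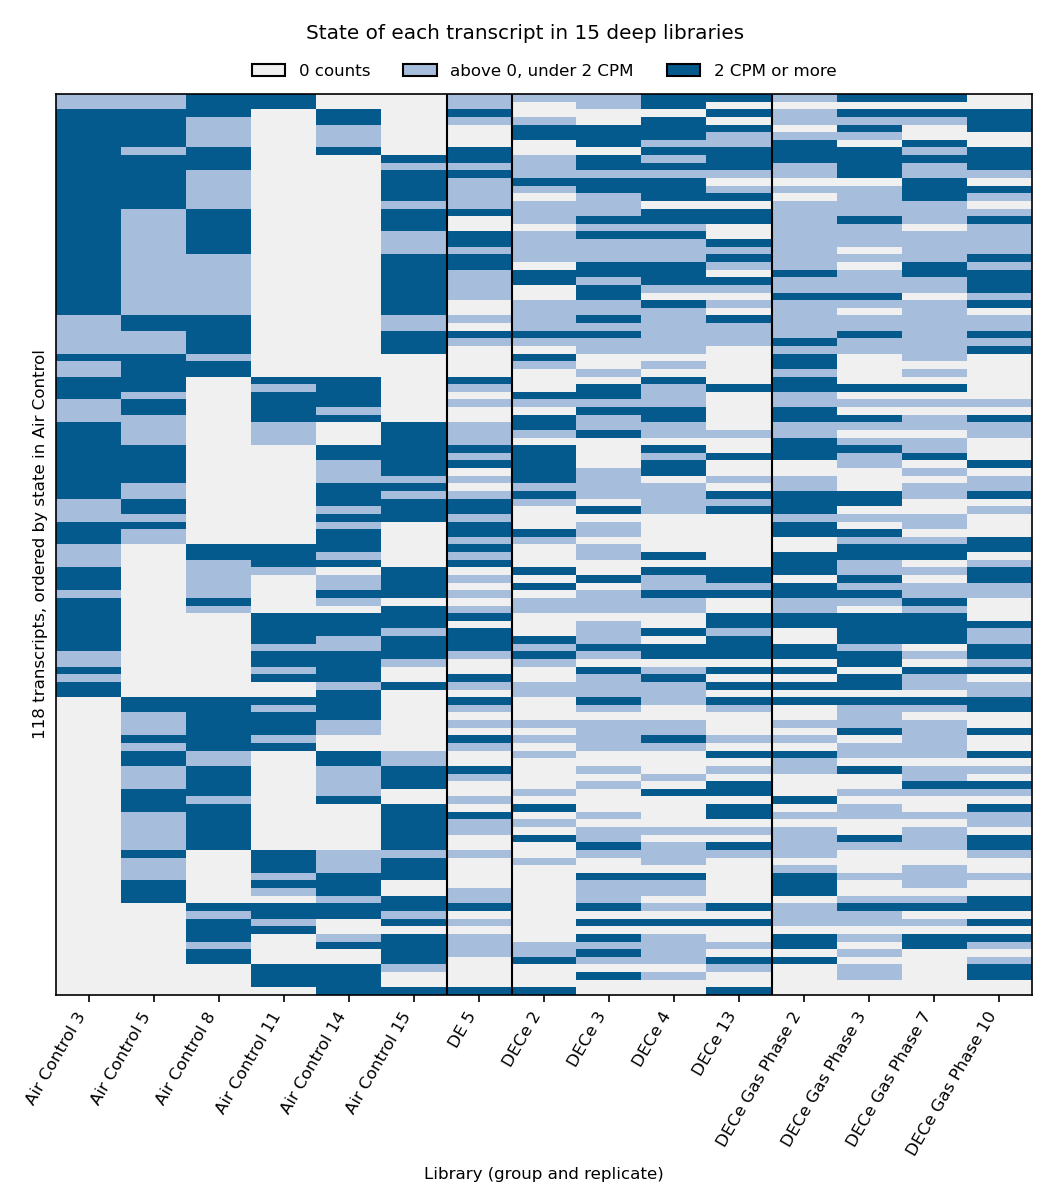
State of each of the 118 on/off transcripts (rows, ordered by their state in Air Control) in the 15 deep libraries (columns, named by group and replicate, with lines between groups). Dark cells are at 2 CPM or more, pale blue cells are traces and light grey cells are at 0; Air Control replicate 11 has the most cells at 0, 74, and every exposed library has cells in all 3 states.

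The transcripts that had the highest levels in Air Control differed in which seedlings held them. The most abundant, psme_t046453 (1019 nt), was at 43.0 CPM in Air Control replicate 8, 38.1 CPM in replicate 11 and 5.66 CPM in replicate 14, with 0.288 CPM in replicate 5 and 0 in replicates 3 and 15. In the 9 exposed deep libraries it had a single count, 0.104 CPM in DECe Gas Phase replicate 3. Among the shallow libraries it had 5 counts in DECe Gas Phase replicate 5, or 10.9 CPM, above the limit of 3 counts there, 6.52 CPM, and 0 in the other 10. It was thus on in none of the exposed deep libraries and was counted in 1 shallow one.

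By contrast, psme_t020329 (1977 nt) was on in 9 of the 15 deep libraries and at 0 in the other 6, with no trace in any. It was at 20.8, 11.8, 9.93 and 18.7 CPM in Air Control replicates 3, 11, 14 and 15 and at 0 in replicates 5 and 8. Among the exposed libraries it was at 17.1 CPM in DE replicate 5, 16.9 CPM in DECe replicate 13, and 23.0, 13.6 and 6.43 CPM in DECe Gas Phase replicates 2, 3 and 7. It was at 0 in DECe replicates 2, 3 and 4 and in DECe Gas Phase replicate 10. Wherever psme_t020329 was counted it was at several times the threshold, and both DECe chambers held seedlings of either kind.

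A total of 5 transcripts showed such a division without traces over all 15 deep libraries. This set was singled out after the values were seen. Besides psme_t020329 they were psme_t065546 (736 nt), psme_t036387 (1273 nt), psme_t058718 (816 nt) and psme_t048256 (983 nt). The level of psme_t065546 was 14.5 and 14.3 CPM in Air Control replicates 14 and 15, 11.4 CPM in DE replicate 5, and 8.40 and 19.3 CPM in DECe replicates 2 and 13, and it was at 0 in the other 10. The next, psme_t036387, was on in 7 libraries of all 4 groups, at 3.20, 7.14, 4.54 and 3.45 CPM in Air Control replicates 3, 5, 11 and 14, 2.77 CPM in DE replicate 5, 8.96 CPM in DECe replicate 4 and 8.49 CPM in DECe Gas Phase replicate 2. The last of them, psme_t058718 and psme_t048256, were counted in 2 Air Control libraries each. They were the only on/off transcripts at 0 in all 9 exposed deep libraries. In the shallow DECe replicate 10, however, psme_t058718 had 6 counts, above the limit of 3 counts. In the shallow DECe Gas Phase replicate 5, psme_t048256 had 1 count, below that limit.

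**Figure D2:**
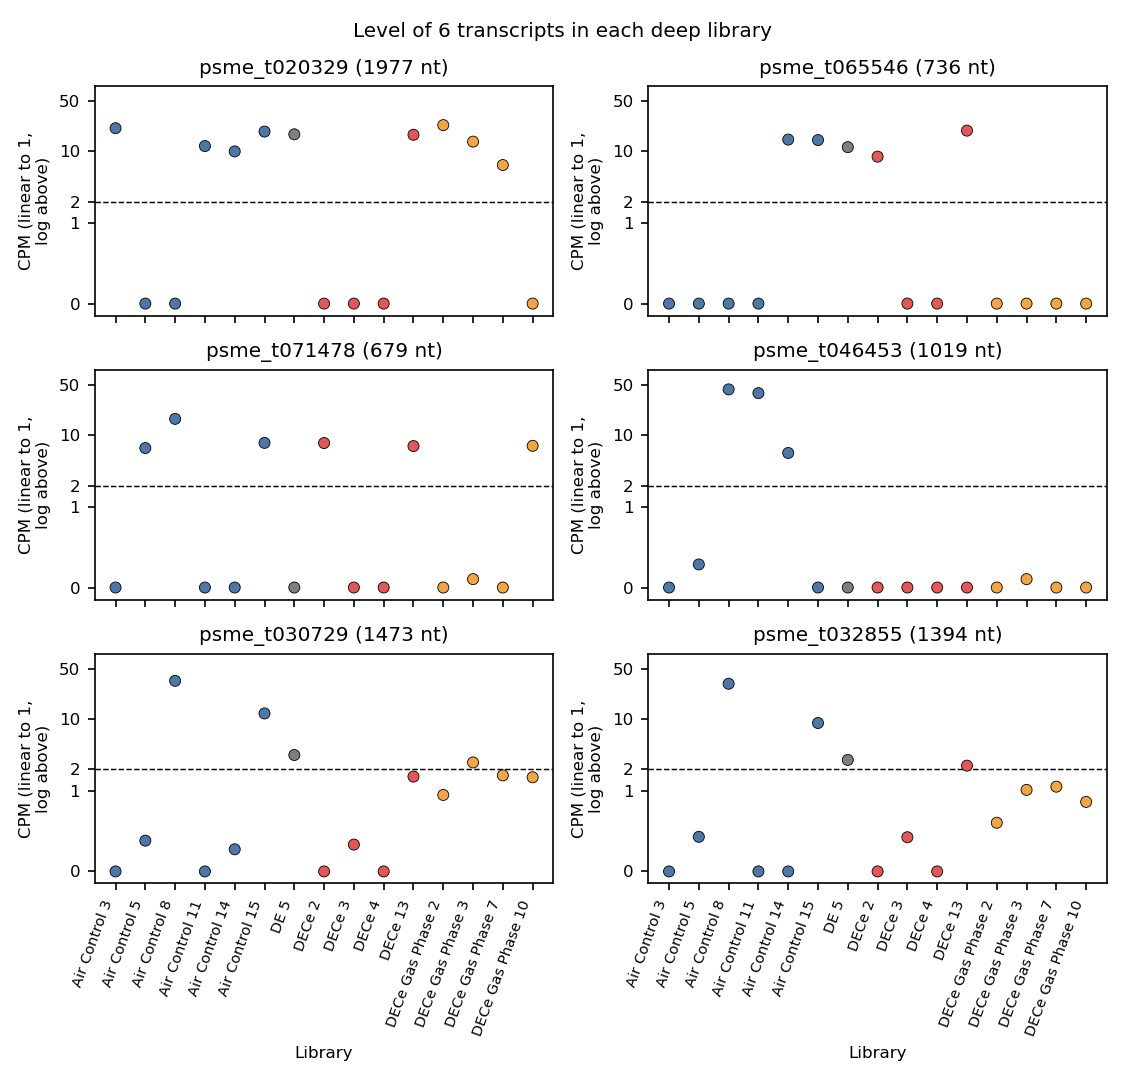
Level of 6 on/off transcripts in each of the 15 deep libraries, in CPM on an axis that is linear up to 1 and logarithmic above; each point is a seedling, coloured by group (blue Air Control, grey DE, red DECe, orange DECe Gas Phase), and the dashed line is 2 CPM. For psme_t020329 the 9 counted seedlings sit between 6.43 and 23.0 CPM and the other 6 at 0, psme_t046453 is high in Air Control alone among these libraries, and psme_t030729 and psme_t032855 rise and fall together.

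Other abundant on/off transcripts were intermediate. The level of psme_t071478 (679 nt) was 6.62, 16.8 and 7.80 CPM in Air Control replicates 5, 8 and 15 and 0 in the other 3, and in the exposed libraries 7.76 CPM in DECe replicate 2, 7.05 CPM in DECe replicate 13 and 7.11 CPM in DECe Gas Phase replicate 10, with 0 or 1 count in the other 6. That of psme_t055730 (856 nt) was 5.44, 7.70 and 17.5 CPM in Air Control replicates 3, 8 and 14, and it was on in 6 exposed deep libraries, at 4.38 to 16.6 CPM. The 824 nt transcript psme_t058069 reached 32.6 CPM in Air Control replicate 14 and 2.03, 2.78 and 5.30 CPM in replicates 3, 5 and 15, and was on in 5 exposed deep libraries at 2.50 to 9.85 CPM. Among deep libraries psme_t040442 (1157 nt) was on in Air Control replicates 11 and 14, at 35.3 and 5.66 CPM. It was also on in DECe Gas Phase replicate 10, at 10.6 CPM. Its highest level was in a shallow library, 72.5 CPM from 52 counts in DECe Gas Phase replicate 4. The limit of 3 counts was 4.19 CPM there. In these 4 examples the on seedlings came from more than 1 chamber, and in Air Control, DECe and DECe Gas Phase no chamber was on in all of its deep libraries. DE has 1 deep library, which was on for psme_t055730 and psme_t058069.

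The question that the Air Control values could not answer is whether the same transcripts were on in some seedlings and at 0 in others where the rule had not looked. Over the 9 exposed deep libraries, 51 of the 118 met the same rule again, with 0 counts in at least 2 libraries and at least 2 CPM in at least 2 others, which is 43.2%. Of the 23107 other transcripts that were on in at least 2 Air Control libraries, 219 did so, a background of 0.948%. Over all 173660 transcripts kept, 941 met the rule in the exposed deep libraries, or 0.542%. Only 51 of these 941, or 5.42%, were among the 118, so the behaviour was not particular to them. Transcripts are not replicates, so these are counts without a test. The other transcripts were more abundant, with a median highest Air Control level of 14.2 CPM against 4.84 CPM. Among those under 10 CPM at their highest, 159 of 9148 other transcripts met the rule again, or 1.74%, against 34 of 91 on/off transcripts, or 37.4%.

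The share was larger with more Air Control seedlings at 0. It was 0.647% of the 22714 transcripts with counts in every Air Control library and 18.3% of the 393 at 0 in 1. It was 43.4% of the 83 on/off transcripts at 0 in 2 Air Control libraries, 42.9% of the 28 at 0 in 3 and 42.9% of the 7 at 0 in 4. The shares of the on/off transcripts with 2, 3 or 4 seedlings at 0 were thus nearly equal, and all were above that of transcripts with 1 seedling at 0.

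**Figure D3:**
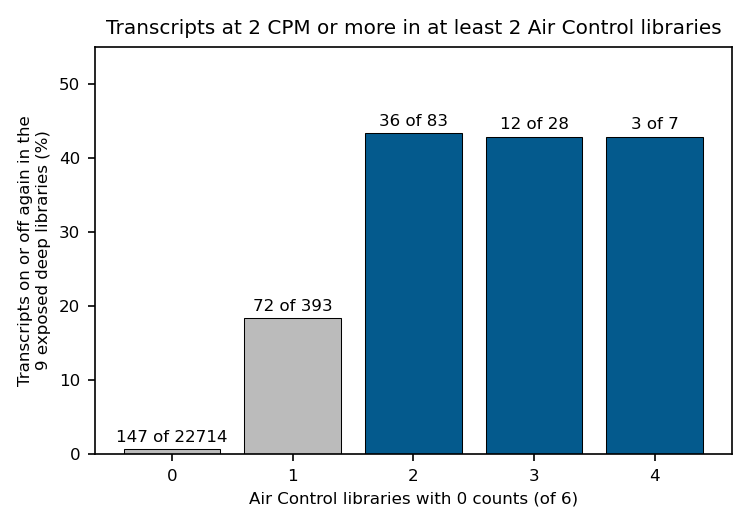
Share (%) of transcripts that were on or off again over the 9 exposed deep libraries, by the number of the 6 Air Control libraries with 0 counts, among all transcripts at 2 CPM or more in at least 2 Air Control libraries. Dark bars are the 118 on/off transcripts and grey bars the others, and the numbers above the bars are counts of transcripts; the dark bars stand at 42.9% to 43.4% and the grey bars at 0.647% and 18.3%.

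Without the 2 Air Control libraries with the fewest counts left, replicates 11 and 14, the rule gave 19 transcripts from the remaining 4, and 10 of them, or 52.6%, were on or off again. This choice was made after the data were seen. Choosing again without 1 Air Control library at a time gave 49 to 81 transcripts, of which 38.2% to 57.8% were on or off again. Leaving out 1 exposed library at a time gave 38 to 51 of the 118. The count was 31 without Air Control replicate 5, 24 without replicate 8, 23 without replicate 11 and 21 without replicate 15, since the rule then found fewer transcripts.

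The remaining 67 went several ways in the exposed seedlings. Of the 118, 24 were on in none of the 9 exposed deep libraries and 18 in 1. Another 25 were on in at least 2 but at 0 in fewer than 2, 12 of them at 0 in 1 library and 13 in none. No transcript was on in all 9, and the largest number of exposed libraries on was 7, for 2 transcripts. At least 1 exposed deep library was at 0 for 104 of the 118, or 88.1%, against 6.04% of the other transcripts. The highest level was in an exposed deep library for 61 of the 118 and in Air Control for the others. Exposed deep libraries numbered 9 and Air Control libraries 6, so nothing is read from this count.

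States of single values were counted in the exposed seedlings, with Air Control as a description only. Of the 1062 values of the 118 transcripts in the 9 exposed deep libraries, 35.0% were at 0, 37.2% were traces and 27.8% were on. In Air Control, where the rule fixed much of the division, 39.3% of 708 values were at 0, 21.3% traces and 39.4% on. By asking for at least 2 libraries at 0 and at least 2 on, the rule limited traces in Air Control. Nothing is therefore read from the smaller share of traces there. For the other transcripts on in Air Control, 1.01% of the values in the exposed deep libraries were at 0 and 85.6% were on.

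Single exposed libraries held between 24 and 40 on transcripts. DECe deep libraries held 32 ± 5.48 on and 45 ± 12.8 at 0 (SD, n = 4), and DECe Gas Phase deep libraries held 34.3 ± 7.59 on and 37.3 ± 5.38 at 0 (SD, n = 4). DE replicate 5, the single deep DE library, held 30 on and 43 at 0. The most were at 0 in DECe replicate 13, with 57, and DECe replicate 2, with 55. These had 7521623 and 10948102 counts left, against 15740189 in DECe replicate 4 and 32852277 in DECe replicate 3, where 35 and 33 were at 0. In DECe Gas Phase the order differed: replicate 10 had 5768522 counts left and 44 at 0, replicate 3 had 9583261 and 38, replicate 2 had 11538173 and 31, and replicate 7 had 19900152 and 36. The part of depth in these counts was not tested.

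**Figure D4:**
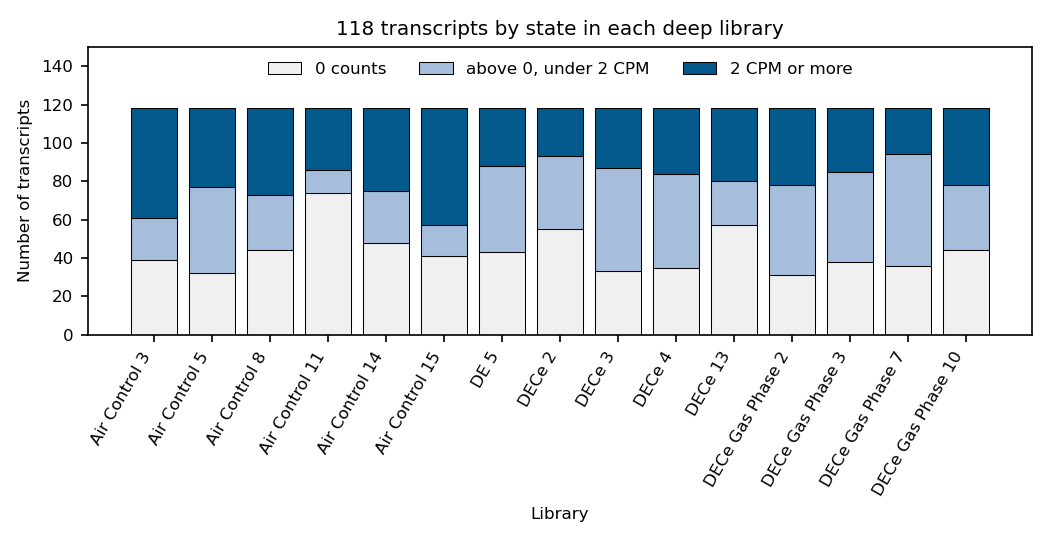
Number of the 118 on/off transcripts at 0 (light grey), with a trace (pale blue) and on at 2 CPM or more (dark blue) in each of the 15 deep libraries. The exposed libraries have 24 to 40 on and 31 to 57 at 0, and the Air Control libraries 32 to 61 on and 32 to 74 at 0.

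Both exposed chambers with several deep libraries held seedlings of either state. In DECe, 52 of the 118 were on in at least 1 of the 4 deep libraries and at 0 in at least 1, or 44.1%, against a background of 3.59% of the other transcripts on in Air Control. In DECe Gas Phase it was 45, or 38.1%, against 1.3%. In both chambers at once it was 24, or 20.3%, against 0.433%. In all, 57 of the 118 were on in at least 1 seedling of each of these chambers, 16 in DECe alone of the 2, 21 in DECe Gas Phase alone and 24 in neither. Of those on in DECe alone, 2 were at 0 in all 4 DECe Gas Phase libraries. Of those on in DECe Gas Phase alone, 3 were at 0 in all 4 DECe libraries. These divisions by chamber were not counted for the other transcripts on in Air Control, so nothing is read from them.

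Differences in state were found between seedlings of the same chamber as well as between chambers. For each pair of libraries, the transcripts on in 1 and at 0 in the other were counted as a share of those on in either. The median share was 39.6% over the 6 pairs within DECe, with a range of 15.4% to 50.9%. It was 31.5% over the 6 pairs within DECe Gas Phase (17.9% to 43.3%) and 31.4% over the 16 pairs between them (25.9% to 53.3%), so the ranges overlapped. The most alike were DECe replicates 3 and 4, with 8 such transcripts, and DECe Gas Phase replicates 3 and 10, with 10. Over all transcripts kept, the median shares were 3.21%, 1.86% and 1.94%. Between DE replicate 5 and the deep libraries of DECe and DECe Gas Phase the medians were 37.4% and 30.8%, over 4 pairs each. Pairs share libraries, so no test was made. Pairs within Air Control, which the rule made different, had a median of 51.6%, and pairs of Air Control with DE, DECe and DECe Gas Phase had medians of 41.2%, 45.8% and 38.9%.

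**Figure D5:**
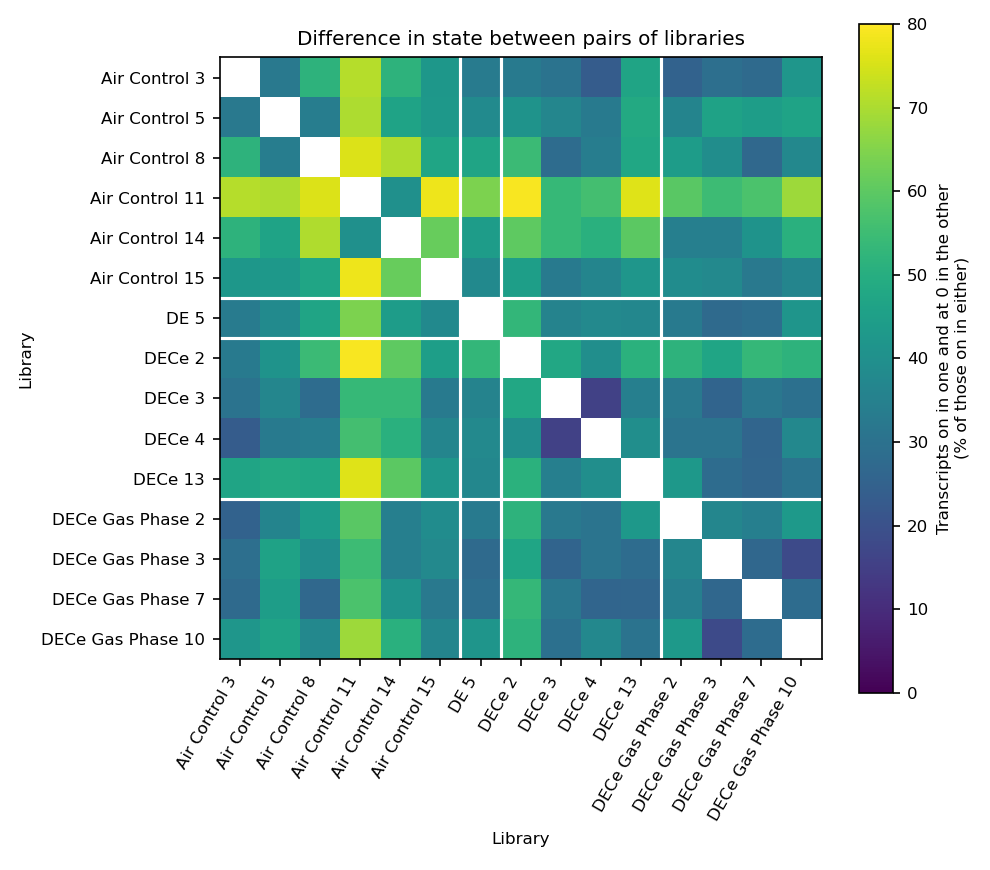
Share (%) of on/off transcripts that were on in 1 library of a pair and at 0 in the other, out of those on in either, for all pairs of the 15 deep libraries, with white lines between groups and an empty diagonal. Pairs within DECe Gas Phase (17.9% to 43.3%) and pairs between DECe and DECe Gas Phase (25.9% to 53.3%) overlap, and the highest value, 79.2%, is that of Air Control replicate 11 with DECe replicate 2.

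The comparison of DECe with DECe Gas Phase asks what the exhaust particles change, and it uses no Air Control value. On the 8 deep libraries of these groups, 0 of 27271 tested transcripts changed (edgeR, quasi-likelihood F test, adjusted p under 0.05 after Benjamini and Hochberg, background 0%), with 838 at an unadjusted p under 0.05 and 4 called by DESeq2. Of the 118, 57 passed the filter on low counts, and none was called, with 3 at an unadjusted p under 0.05 and 0 called by DESeq2. Their log2 fold changes ran from -3.62 to 2.71, with a median of -0.07 against -0.0038 over all tested transcripts, and 12 of the 57, or 21.1%, were larger than 2 in size, 6 in each direction, against 1.08% of all tested transcripts, 0.253% higher and 0.829% lower in DECe. Complete separation of the 4 DECe from the 4 DECe Gas Phase libraries was seen for 2 of the 118, against a background of 1.71%.

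The smallest p-values in this comparison belonged to psme_t140026 and psme_t085016. The 387 nt transcript psme_t140026 was at 0, 0.0304, 0 and 2.53 CPM in DECe replicates 2, 3, 4 and 13 and at 3.12, 10.3, 2.81 and 9.01 CPM in DECe Gas Phase replicates 2, 3, 7 and 10. Every DECe Gas Phase level was above every DECe level, and DECe replicate 13 came close to the lowest of them. On the log2 scale DECe differed by -3.62 ± 1.47 (SE), with an edgeR adjusted p of 1.00 and a range of 0.240 to 1.00 over 13 alternatives. In Air Control it was on in 4 libraries, at 2.76 to 6.00 CPM, and at 0 in replicates 5 and 8.

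For psme_t085016 (582 nt) the levels were 0, 1.25, 0 and 0 CPM in DECe replicates 2, 3, 4 and 13 and 0, 5.53, 6.58 and 3.81 CPM in DECe Gas Phase replicates 2, 3, 7 and 10. The groups overlapped through the 0 in DECe Gas Phase replicate 2. The log2 difference was -3.62 ± 1.49 (SE), with an edgeR adjusted p of 1.00 and a range of 0.0252 to 1.00 over 13 alternatives. Its call at the lowest of these came with no filter on low counts, where psme_t151913 and psme_t037409 were called too.

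Against Air Control, the members were chosen on 1 side of the comparison, so their calls are a description. Of the 32974 tested transcripts, 69 changed in DECe, 32 higher and 37 lower, a background of 0.209%, and 84 changed in DECe Gas Phase, 66 higher and 18 lower, a background of 0.255% (edgeR, adjusted p under 0.05, deep libraries). The balance of directions in DECe turned when 1 library was left out, to 27 higher and 12 lower without DECe replicate 2, 30 and 13 without replicate 3, and 16 and 8 without replicate 13. Both comparisons share the 6 Air Control libraries. Of the 118, 102 passed the filter and 0 were called in either. At an unadjusted edgeR p under 0.05 were 6 and 5 of the 102, against 3803 and 3220 of all tested transcripts. DESeq2 called 2 and 1 of the 102, against 794 and 622 of all tested transcripts, or 2.41% and 1.89%. A log2 fold change over 2 in size was found for 27 of the 102 in DECe, 4 higher and 23 lower, against a background of 3.6%, with 1.53% higher and 2.07% lower. In DECe Gas Phase it was found for 17, 6 higher and 11 lower, against 3.09%, with 2.06% higher and 1.03% lower. Since the rule asked for high levels in at least 2 Air Control libraries, nothing is read from these counts. The median was -0.27 in DECe and -0.04 in DECe Gas Phase, against -0.01 and -0.03 over all tested transcripts.

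The smallest p-values for DECe against Air Control were those of psme_t151913 and psme_t013674. The 364 nt transcript psme_t151913 was at 1.42, 0, 1.95, 3.403, 4.00 and 0 CPM in Air Control replicates 3, 5, 8, 11, 14 and 15 and at 0 in all 4 deep DECe libraries. At the highest DECe limit of 3 counts per library, 0.399 CPM, its mean of 1.797 ± 1.68 CPM in Air Control (SD, n = 6) was at least 4.50-fold higher (edgeR adjusted p = 0.229, against 0.0340 to 1.00 over 20 alternatives). In the same comparison psme_t013674 (2431 nt) was at 1.71 ± 2.10 CPM in Air Control and 0.0539 ± 0.0385 CPM in DECe (SD, n = 6 and 4). In log2 terms it differed by -4.76 ± 1.56 (SE), with an adjusted p of 0.243 by edgeR, against 0.0381 to 0.988 over 16 alternatives. DESeq2 called both (adjusted p = 0.0340 and 0.0381). In Air Control psme_t013674 was on in replicates 3, 14 and 15 and at 0 in replicates 8 and 11, so the groups overlapped.

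For DECe Gas Phase against Air Control they were psme_t037409 and psme_t020887. The level of psme_t037409 (1243 nt) was 6.71, 14.5 and 3.17 CPM in Air Control replicates 3, 11 and 14, at most 0.0479 CPM in the other 3, and at most 0.0867 CPM in the 4 DECe Gas Phase libraries (log2 fold change -7.41 ± 2.68, SE, edgeR adjusted p = 0.345, against 0.0754 to 0.664 over 20 alternatives). In the deep DECe libraries it was on in replicates 2 and 3, at 12.3 and 17.3 CPM. It was at 0.889 CPM in replicate 4 and at 0 in replicate 13. In the shallow DECe replicate 15 it had 21 counts, or 41.6 CPM, above the limit of 3 counts there, 5.94 CPM. The 1947 nt transcript psme_t020887 was at 8.23 CPM in Air Control replicate 3 and 2.40 CPM in replicate 15, and at no more than 0.151 CPM in DECe Gas Phase (log2 fold change -4.39 ± 1.64, SE, edgeR adjusted p = 0.355, against 0.122 to 0.677 over 15 alternatives). Its highest level in DECe was 0.913 CPM. DESeq2 called psme_t065546, described above, which was at 0 in all 4 DECe Gas Phase libraries and in 4 of the 6 Air Control libraries.

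Some on/off transcripts reached far higher levels in exposed seedlings than in Air Control. The highest levels in exposed deep libraries chose the transcripts of this paragraph, after the values were seen. Shallow libraries were left out of this ranking. The highest was 173 CPM of psme_t032908 (1392 nt) in DECe Gas Phase replicate 2. Next were 61.2 CPM of psme_t064965 (742 nt) in DECe Gas Phase replicate 10 and 48.8 CPM of psme_t073233 (664 nt) in DECe replicate 13. In the other exposed deep libraries psme_t032908 ran from 0 in DECe replicate 2 to 31.9 CPM in DECe Gas Phase replicate 3, and its highest Air Control level was 13.8 CPM. That of psme_t064965 was at most 1.46 CPM in every other exposed deep library and 3.59 CPM at its highest in Air Control. For psme_t073233 the other exposed deep libraries held at most 16.0 CPM, and Air Control at most 11.3 CPM. The summed level of the 118 was highest in DECe Gas Phase replicate 2, at 520 CPM, and DECe replicate 13, at 448 CPM, and 163 to 358 CPM in the other exposed deep libraries.

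A few on/off transcripts moved together from seedling to seedling. Likeness was measured over the 9 exposed deep libraries as Pearson's r of log2(CPM + 0.1), for the 1275 pairs of the 51 transcripts that were on or off again. The median r was 0.02, and 5 pairs had an r of at least 0.9. The r over the 6 Air Control libraries is given beside it as a description, since the Air Control values chose the transcripts. These correlations describe 9 or 6 libraries of unequal depth and carry no test.

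Of these 5 pairs, those also alike over Air Control are described first, a choice made after the values were seen. Their r over Air Control picked them, so it is no further evidence of likeness. The first was psme_t040689 (1151 nt) with psme_t057217 (836 nt), at r = 0.97 over the exposed and 0.94 over the Air Control libraries. The second was psme_t030729 (1473 nt) with psme_t032855 (1394 nt), at 0.96 and 0.98. The third was psme_t032884 (1392 nt) with psme_t059928 (800 nt), at 0.93 and 0.99. In the second pair psme_t030729 was at 33.8 and 11.96 CPM in Air Control replicates 8 and 15, where psme_t032855 was at 30.8 and 8.80 CPM. Both were at 0 in Air Control replicates 3 and 11 and in DECe replicates 2 and 4, and both were at most 3.17 CPM in every exposed deep library. Where each had at least 10 counts, the ratio of the first to the second was 0.706 to 2.40 over 7 libraries, and 1.10 and 1.36 in the libraries with the highest counts of both, Air Control replicates 8 and 15. The third pair kept a ratio of 2.60 to 5.05 over 7 libraries, and the first a ratio of 1.03 to 5.69. The other pairs of the 5 were psme_t173410 with psme_t042554 and psme_t030729 with psme_t049448. Over the exposed libraries their r was 0.954 and 0.935, above the 0.933 of the third pair. Over Air Control it was near 0, at -0.12 and 0.06.

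Opposite patterns were as rare. There were 6 pairs with an r of -0.9 or less over the exposed libraries. The lowest was that of psme_t166777 (340 nt) and psme_t024637 (1743 nt), at -0.97, and over Air Control the same pair had an r of 0.18. Likeness in the exposed seedlings was near 0 both for transcripts with the same combination of states in Air Control and for others, over the 94 transcripts whose state varied there. The mean agreement of on calls (phi) was -0.0028 over 49 pairs with the same combination and 0.0095 over 4322 pairs with different ones, and the medians were 0 and -0.0598. The difference was not tested, and mean and median order the kinds of pair oppositely.

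The on/off transcripts were also short, a property the rule did not use directly. Their median length was 1012.5 nt, with quartiles of 736 and 1394 nt, against 2080 nt (quartiles 1403 and 2912 nt) for the other transcripts on in Air Control. The shortest was psme_t176287 at 327 nt and the longest psme_t001247 at 5295 nt. Per kilobase, their highest Air Control level had a median of 5.57 CPM per kb, against 7.40 CPM per kb for the others. A shorter transcript gives fewer counts at the same level per length, and the part of this in the difference was not tested. Among transcripts under 10 CPM at their highest in Air Control, the median length was 983 nt for 91 on/off transcripts. It was 1918 nt for 9148 others. Their median highest Air Control levels were 3.97 and 5.20 CPM. The 51 that were on or off again had a median length of 960 nt and the other 67 a median of 1031 nt.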

How the data were processed

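The table the authors deposited holds whole-number counts for each library, and beside them RPKM values, per the file headers, which served only to derive transcript lengths. Dividing counts by RPKM gave 1 length per transcript (largest deviation 0.00497% at RPKM of 10 or more). The submitters' processing notes name CASAVA 1.8.2. For the aligner, counting tool, reference transcriptome, strand and multiply mapped reads, nothing is given in the sources used. Counts of transcripts with a near-identical copy are therefore uncertain.

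Groups came from the source label and replicate numbers from the title. The on/off rule and the lists and named transcripts were chosen with earlier results of these data known. Named transcripts were the 10 with the highest Air Control level, the top of each of the 3 commonest Air Control combinations, the 2 smallest p-values per comparison, and up to 2 each at 0 or on in all exposed deep libraries. The limit of 200 named none, so the transcripts nearest to the CPM threshold stand in its place. Others are said to be singled out or chosen after their values were seen.

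Tests used edgeR 4.0.16 (R 4.3.3) on the counts of the whole table: filterByExpr, TMM factors, robust quasi-likelihood tests, and adjustment after Benjamini and Hochberg over all tested transcripts. The particle comparison used the 8 deep DECe and DECe Gas Phase libraries, and those against Air Control 1 model over 14 deep libraries. The printed SE is the log2 fold change divided by the root of its F statistic. The fit was checked on simulated counts with 200 changed transcripts. DESeq2 1.42.0 was an alternative. Total counts ran from 2467403 to 60457187 per library.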

Additional observations from a re-analysis of the deposited data

Results flagged for a closer look

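Within a group, a library was looked at again where its gap to the nearest other library took most of the group's range (Dixon's test, 95%). Over 69 groups of values this held in 17, where chance gives about 1 in 20. The transcripts were chosen for being uneven in Air Control, and values at 0 in all other libraries of a group give the largest gap possible, so the number is no surprise in itself.

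In Air Control the libraries that stood apart were replicate 11 for psme_t040442 (35.3 CPM) and psme_t058718 (17.9 CPM), replicate 8 for psme_t030729 (33.8 CPM) and psme_t032855 (30.8 CPM), replicate 14 for psme_t058069 (32.6 CPM) and replicate 3 for psme_t020887 (8.23 CPM). In DECe they were replicate 13 for psme_t040442 (1.06 CPM), psme_t020329 (16.9 CPM) and psme_t140026 (2.53 CPM), replicate 4 for psme_t032884 (10.4 CPM), replicate 3 for psme_t085016 (1.25 CPM) and replicate 2 for psme_t020887 (0.913 CPM). In DECe Gas Phase they were replicate 10 for psme_t040442 (10.6 CPM) and psme_t071478 (7.11 CPM), replicate 7 for psme_t040689 (5.78 CPM), replicate 3 for psme_t046453 (0.104 CPM) and replicate 2 for psme_t037409 (0.0867 CPM). The last 2 levels are 1 count each.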

How the results depend on the processing

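No on/off transcript was called by edgeR in any of the 3 comparisons, and leaving out 1 library at a time kept that count at 0 in each. With no filter on low counts 3 were called between DECe and DECe Gas Phase, and DESeq2 called 2 in DECe and 1 in DECe Gas Phase against Air Control. Over all transcripts, the particle comparison gave 0 calls, 149 with no filter, 4 with DESeq2, 1 with the shallow libraries included and 0 to 2 leaving out 1 library. DECe against Air Control gave 69, with 299 unfiltered, 794 with DESeq2, 15 with the shallow libraries, 0 with the replicate number as a block, and 7 (without DECe replicate 4) to 58 leaving out 1 library. DECe Gas Phase against Air Control gave 84, with 203 unfiltered, 622 with DESeq2, 1 with the shallow libraries, 14 with the replicate number as a block, and 12 (without DECe Gas Phase replicate 3) to 123 leaving out 1 library. Counts more than 1.5 times lower than these were also 16 to 44 in DECe without any 1 of Air Control replicates 3, 5, 8, 11, 14 and 15 and DECe replicates 2, 3 and 13, and 28 to 55 in DECe Gas Phase without any 1 of Air Control replicates 3, 5, 8, 11 and 15, DECe replicate 4 and DECe Gas Phase replicates 2 and 7. The causes were not tested, except that fewer libraries enter when 1 is left out. The block left 1 residual degree of freedom in the particle comparison, where it also gave 0 calls, and in the model against Air Control. DECe and DECe Gas Phase share 2 numbers among deep libraries, whose deviations correlated at 0.13 and -0.19. Pairs with different numbers ran from -0.337 to 0.343. These 2 values therefore cannot tell whether such samples share more than a number. The block called none of the 118.

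The transcripts on or off again in the exposed libraries numbered 51 of 118 (43.2%). They were 94 of 200 with on at 1 CPM, 17 of 31 at 5 CPM, 104 of 200 with off at 3 counts or fewer, 1 of 2 with 3 libraries on and 3 off, 19 of 39 with CPM of all counts, 51 of 114 with the 1% limit set on all counts, 10 of 19 without Air Control replicates 11 and 14, and 21 to 51 leaving out 1 library. Over the alternatives the share was 32.2% to 57.8%, against 0.206% to 3.11% of the other transcripts. The median number on per exposed deep library was 33, 48 at 1 CPM and 20 with CPM of all counts. Depth limits every count of 0 to the levels given with it.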

Other observations

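The shallow DE libraries entered no comparison. Those of DECe and DECe Gas Phase entered only the alternative that included shallow libraries. In it, 16 of the 118 were tested between DECe and DECe Gas Phase and 73 in each comparison against Air Control, and 0 were called. Between 2 and 37 of the 118 had counts in each of the 11 shallow libraries, 85 had counts in at least 1, and 33 in none. The transcript psme_t015404 (2295 nt) was the highest of the 118 in DECe Gas Phase replicate 4, at 172 CPM, with 71.3 CPM in DECe replicate 15 and, in DE replicate 8, 31.0 CPM. In the deep libraries psme_t015404 ran from 0 in Air Control replicates 5 and 8 to 37.9 CPM in DECe replicate 13. The limit of 3 counts was 4.19 CPM in DECe Gas Phase replicate 4, 23.2 CPM in DE replicate 8 and 5.94 CPM in DECe replicate 15.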
